A study of Mus musculus with 6 samples.

Results

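Collagen genes were examined on oligonucleotide arrays of muscle, adipose tissue and liver from obese mice given a bitter melon seed extract or saline. A gene was a member when its platform annotation symbol was Col, then 1 or 2 digits, then a and 1 digit. This found 38 genes among the 16675 named genes, with 57 probes. Of the members, 22 had 1 probe and 16 had more, and the probe with the highest mean log2 intensity over the 6 arrays stood for its gene. RefSeq lists 44 mouse genes with such a symbol, and the 6 others (Col6a1, Col6a4, Col6a5, Col6a6, Col26a1 and Col28a1) were not analysed here. The members comprised 11 fibrillar collagens, 6 type IV collagens of basement membranes and 21 of other types.

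All mice were ob/ob (B6.V-Lepob/J), a strain without functional leptin. They were fasted for 4 h and were given by mouth either MCSE, a watery extract of Momordica charantia (bitter melon) seeds, or phosphate-buffered saline (PBS), labelled mock. A glucose load of 1 g/kg was injected into the peritoneum 15 min afterwards, and tissues were taken 4 h after the glucose. There was 1 array for each of the 6 combinations of treatment (MCSE or PBS) and tissue label (muscle, adipose tissue or liver). No difference between MCSE and PBS therefore has a replicate check or a p-value, and precision is limited by how few arrays there are. The labels did not state the age of the mice or whether RNA of several mice was pooled.

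Collagens are the main structural proteins of the extracellular matrix. Each is a trimer of alpha chains that wind into a triple helix. Fibrillar chains (types I, II, III, V and XI among them) assemble into banded fibrils, type IV chains form the sheet-like network of basement membranes, and other types coat fibrils, form beaded filaments or span the cell membrane. In muscle and fat most fibrillar collagen is made by fibroblasts and related progenitor cells, and in liver by hepatic stellate cells and portal fibroblasts, whereas endothelial cells, muscle cells and fat cells also make type IV collagen. In bulk tissue, fewer cells of a type and less RNA per cell cannot be told apart.

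Both muscle arrays carried muscle genes, as Ckm, the muscle creatine kinase, lay at a log2 intensity of 15.96 with PBS and 15.83 with MCSE against at most 9.60 on the other 4 arrays. They also held genes of fat, with Lep at 12.98 with PBS and 12.94 with MCSE and a white adipocyte median of 12.86 and 12.91. For liver and kidney this held for some genes, such as Alb at 12.35 and 10.44 and Kap at 9.61 and 12.81. The median of the hepatocyte markers was 9.34 and 8.87, and that of the kidney markers 9.37 and 9.66. The median of all probes was 8.95. Of 7 markers on each list, 4 and 3 hepatocyte markers and 4 and 5 kidney markers reached it. The other labels were not borne out by their transcripts. The liver-labelled arrays held genes of fat (Lep at 15.04 with PBS and 15.93 with MCSE) beside those of liver (Alb at 15.79 and 15.36). They also held genes of kidney (Kap at 16.07 and 16.05, Umod at 12.47 and 14.27). The MCSE array of the adipose label resembled that of the liver label in markers of fat, liver and kidney. White adipocyte markers had a median of 15.13 on MCSE adipose and 15.12 on MCSE liver. Hepatocyte markers had 11.87 on both, and kidney markers 13.09 and 13.08. Fast muscle markers (9.37 and 8.93) and macrophage markers (11.29 and 10.89) lay further apart. Of 24 collagens at or above the median of all probes on either of this pair, 0 were 2-fold apart. Their median absolute log2 difference was 0.135. The same count was not made over all genes, so it does not show a resemblance by itself. The array labelled PBS adipose stood apart, with white adipocyte genes at a median of 9.36 against at least 12.86 on each of the other 5 arrays. "Liver" and "adipose" below are labels of arrays. No comparison of MCSE with PBS was made on the adipose label.

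Stretches of 3 promoters are shown because the results turn on their genes. Col1a2 and Col3a1 are fibrillar genes whose differences between muscle and the liver label had opposite signs, and Col4a1 and Col4a2 are neighbours with a similar order of arrays. Sequences are those of RefSeq on build GRCm38.p6, on the plus strand, and 30 of the 38 genes matched that table. For Col1a2 (chr6:4505368-4505617) and Col3a1 (chr1:45311288-45311537) the 250 bases before the annotated start are given. Capitals mark 3 motifs on either strand: TATAAA as the core of a TATA box, then CCAAT as that of the box of this name, and further GGGCGG as that of a GC box. For Col4a1 and Col4a2 (chr8:11312801-11312830) capitals mark the 22 bases that lie between the starts of these oppositely directed genes and belong to both transcripts.
Col1a2: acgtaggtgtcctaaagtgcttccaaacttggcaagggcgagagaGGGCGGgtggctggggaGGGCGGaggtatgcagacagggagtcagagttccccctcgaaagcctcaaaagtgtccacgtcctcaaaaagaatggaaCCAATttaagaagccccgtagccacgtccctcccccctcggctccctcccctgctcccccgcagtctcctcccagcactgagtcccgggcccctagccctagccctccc
Col3a1: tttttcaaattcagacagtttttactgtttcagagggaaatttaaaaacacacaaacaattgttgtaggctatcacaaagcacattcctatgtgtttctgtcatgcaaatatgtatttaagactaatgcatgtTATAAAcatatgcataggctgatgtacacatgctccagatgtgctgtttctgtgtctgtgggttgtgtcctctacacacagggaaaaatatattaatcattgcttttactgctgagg
Col4a1 and Col4a2: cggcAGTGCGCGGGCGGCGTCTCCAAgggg
The Col1a2 stretch held 1 CCAAT and 2 GGGCGG and had a GC content of 62.0%, and the Col3a1 stretch held 1 TATAAA and had a GC content of 35.2%. Over 33 such stretches of the collagens (3 genes had 2), 5 held TATAAA, 12 CCAAT and 19 GGGCGG. Among all 32851 stretches of this length the shares were 12.4%, 33.8% and 32.7%. A match is a description of the letters and not of a factor's binding.

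A collagen counted as measured in a pair of arrays when at least 1 of its 2 arrays lay at or above 8.95 on the log2 scale, the median of all probes. This held for 22 collagens on the muscle pair and 26 on the liver pair, 21 of them on both and 27 on at least 1. The other 11 lay below the median on all 4 arrays. They were Col9a1, Col9a3, Col10a1, Col11a1, Col11a2, Col19a1, Col22a1, Col24a1, Col4a3, Col4a4 and Col8a2. Several of these are cartilage collagens (types IX, X and XI), and Col4a3 and Col4a4 encode chains of the glomerular basement membrane. Of all 38, 22 reached the median on the PBS muscle array, 21 on MCSE muscle, 23 on PBS liver, 22 on MCSE liver, 25 on PBS adipose and 21 on MCSE adipose. Of all genes, 60.6%, 60.7%, 61.5%, 62.1%, 55.6% and 62.0% did so, in the same order of arrays. Intensities of different probes depend on the probe as well as on the transcript, so levels are compared between arrays and not between genes.

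**Figure D1:**
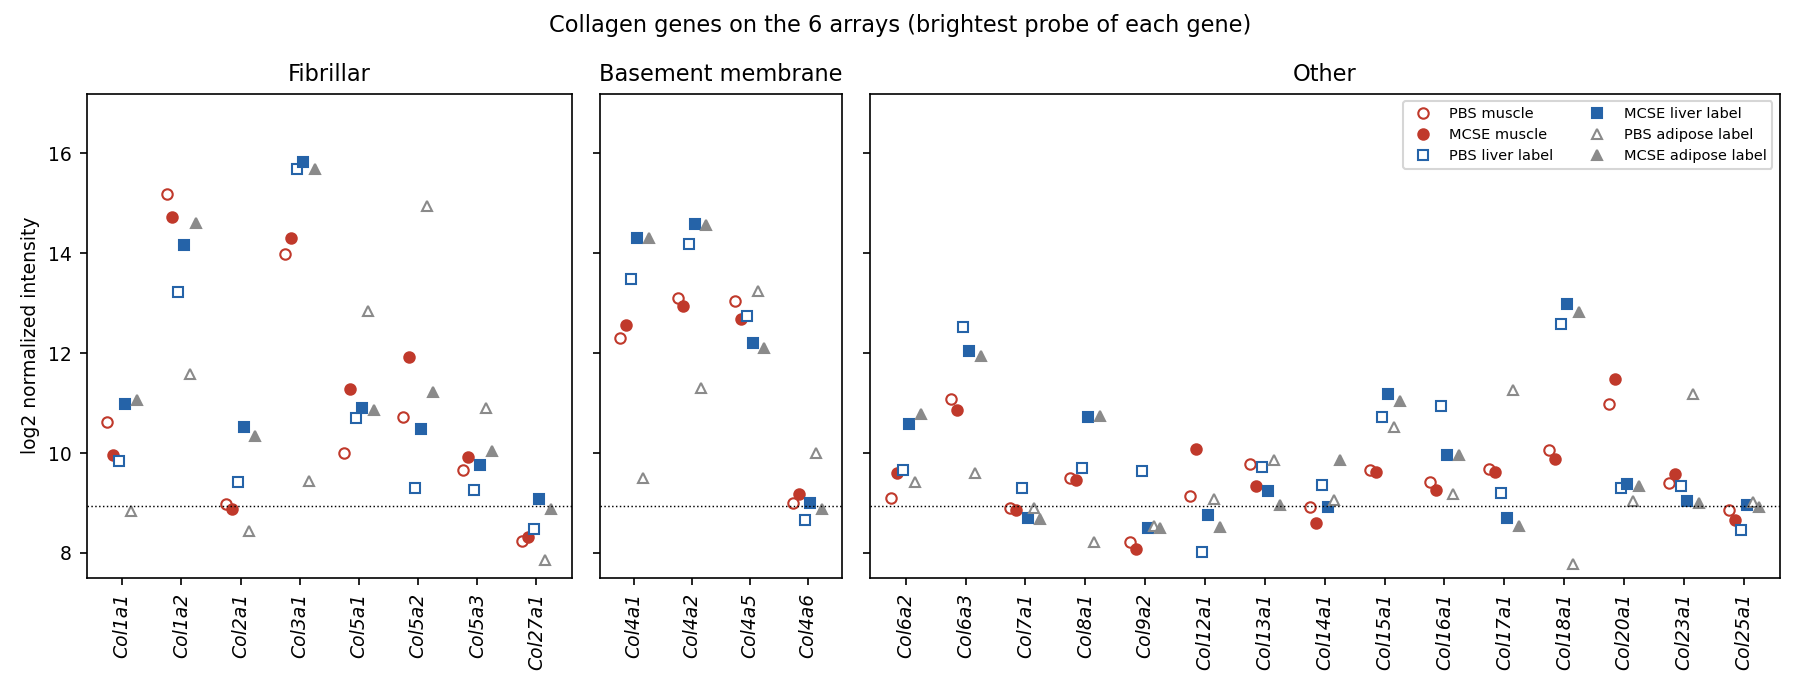
Log2 normalized intensity (y axis) of the 27 collagen genes measured in at least 1 pair (x axis), on each of the 6 arrays, with open symbols for PBS, filled symbols for MCSE and a dotted line at the median of all probes (8.95). Col3a1, Col4a1, Col4a2 and Col18a1 are higher on both liver-labelled arrays than on both muscle arrays, and the PBS adipose array (open triangles) lies far from the other 5 for many genes.

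Among the fibrillar genes, the type I chains had the same signs of MCSE minus PBS. Col1a1, which encodes the alpha 1 chain of type I collagen, lay at 10.63 on PBS muscle and 9.96 on MCSE muscle, at 9.85 on PBS liver and 10.99 on MCSE liver, and at 8.83 and 11.07 on PBS and MCSE adipose. Its partner Col1a2 lay at 15.18 and 14.73 in muscle, 13.23 and 14.16 on the liver label and 11.59 and 14.60 on the adipose label. Both were thus lower with MCSE on the muscle pair and higher with MCSE on the liver pair. Col3a1, the type III chain that co-assembles with type I, lay at 13.98 and 14.31 in muscle, 15.69 and 15.83 on the liver label and 9.44 and 15.68 on the adipose label. It was thus higher on each liver-labelled array than on each muscle array, where Col1a2 was lower.

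The type V chains regulate the width of fibrils. Col5a1 lay at 10.0 and 11.29 in muscle, 10.70 and 10.91 on the liver label and 12.85 and 10.87 on the adipose label. Col5a2 lay at 10.73 and 11.93 in muscle, 9.30 and 10.48 on the liver label and 14.95 and 11.22 on the adipose label. On these probes both had their highest value on the PBS adipose array, while the other 2 probes of Col5a2 were lowest there, at 9.60 and 7.82. Col5a3 lay between 9.27 and 10.90 on the 6 arrays, with the same array highest. Col2a1, the main collagen of cartilage, lay at 8.99 and 8.87 in muscle, 9.42 and 10.53 on the liver label and 8.44 and 10.35 on the adipose label. In muscle it lay near the median of all probes. Col27a1 passed the median on MCSE liver alone, at 9.08.

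Of the type IV genes, Col4a1 and Col4a2 encode the common basement membrane trimer. Col4a1 lay at 12.30 and 12.56 in muscle, 13.48 and 14.31 on the liver label and 9.50 and 14.30 on the adipose label. Col4a2 lay at 13.11 and 12.94, at 14.18 and 14.59 and at 11.31 and 14.57. Both were lowest on PBS adipose, intermediate in muscle and highest on the MCSE arrays of the liver and adipose labels. The Pearson correlation of this pair over the 6 arrays was 0.987, and that of Col1a1 and Col1a2 was 0.816, values that describe single arrays that share their tissues and rest partly on the PBS adipose array. Col4a5, an X-linked chain, lay at 13.05 and 12.69 in muscle, 12.74 and 12.21 on the liver label and 13.24 and 12.11 on the adipose label. It was not dim on PBS adipose, unlike Col4a1 and Col4a2. Its neighbour Col4a6 lay between 8.66 and 10.01, again highest on PBS adipose.

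Among the other types, the transmembrane collagens were close on the muscle and liver arrays. Col13a1, of cell adhesion sites including the neuromuscular junction, lay at 9.79 and 9.35 in muscle and 9.72 and 9.25 on the liver label. Col17a1, of the hemidesmosome, lay at 9.68 and 9.62 against 9.20 and 8.69, and Col23a1 at 9.41 and 9.58 against 9.35 and 9.05. Their values on the muscle arrays overlapped or lay near those on the liver label. Col25a1 lay between 8.46 and 9.03 on the 6 arrays, about the median of all probes. Col7a1, the anchoring fibril of skin, lay between 8.68 and 9.31, and the fibril-associated Col14a1 between 8.60 and 9.86. All 3 stayed within about 1 log2 unit of the median of all probes. Col15a1 and Col18a1, by contrast, were each higher on both liver-labelled arrays than in muscle.

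On the muscle pair, the difference of MCSE minus PBS was small for most collagens. Of 22 measured, 2 were at least 2-fold higher and 0 at least 2-fold lower, where 3.9% and 1.88% of all 10711 measured genes were. The median of the collagens was -0.04, against -0.05 over all genes, and 10 of 22 lay above 0. Col5a1 differed by 1.29 on the log2 scale (2.44-fold higher with MCSE) and Col5a2 by 1.20 (2.29-fold). For Col5a2 the probe brightest on the 4 muscle and liver-labelled arrays gave 0.41 and the mean of its probes 0.51, so that 1 of the 2 calls rested on the choice of probe. As a gauge of error, the SD per probe, estimated from pairs of measured probes of 1504 genes, was 0.517 in muscle and holds no variation between mice. In all 4 collagens passed it, namely Col5a1, Col5a2, Col12a1 at 0.94 and Col1a1 at -0.67. The share was 18.2%, against 21.9% of all genes.

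By class in muscle, the 7 measured fibrillar genes had a median of 0.26 and ranged from -0.67 to 1.29. The 4 type IV genes stayed between -0.36 and 0.26. The 11 others had a median of -0.05. Among them, Col12a1, which coats fibrils in tendon and muscle fascia, lay at 9.14 with PBS and 10.08 with MCSE. Col20a1, of the same fibril-associated family, lay at 10.99 and 11.48, a difference of 0.49. Col6a2, of the beaded filaments around muscle fibres, lay at 9.11 and 9.60, and Col6a3 at 11.09 and 10.86. The type VI genes thus differed in sign, both by less than the SD per probe.

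The muscle arrays also differed in genes of slow fibres. Of 7 slow muscle markers, 5 were 2-fold higher with MCSE and 0 lower, with a median of 2.62, and their summed intensity (in units of 1000) was 45.0 with PBS and 159 with MCSE. Myh7, the slow myosin heavy chain, lay at 11.92 with PBS and 15.46 with MCSE. Fast muscle markers had a median of -0.09, fibroblast markers 0.09, smooth muscle and pericyte markers 0.12, endothelial markers -0.28 and macrophage markers 0.20, each with 0 past 2-fold. Hepatocyte genes were 2-fold lower in 1 of 4 and kidney genes 2-fold higher in 2 of 5. The part of the fibre type or of other tissue in the collagen differences was not tested.

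**Figure D2:**
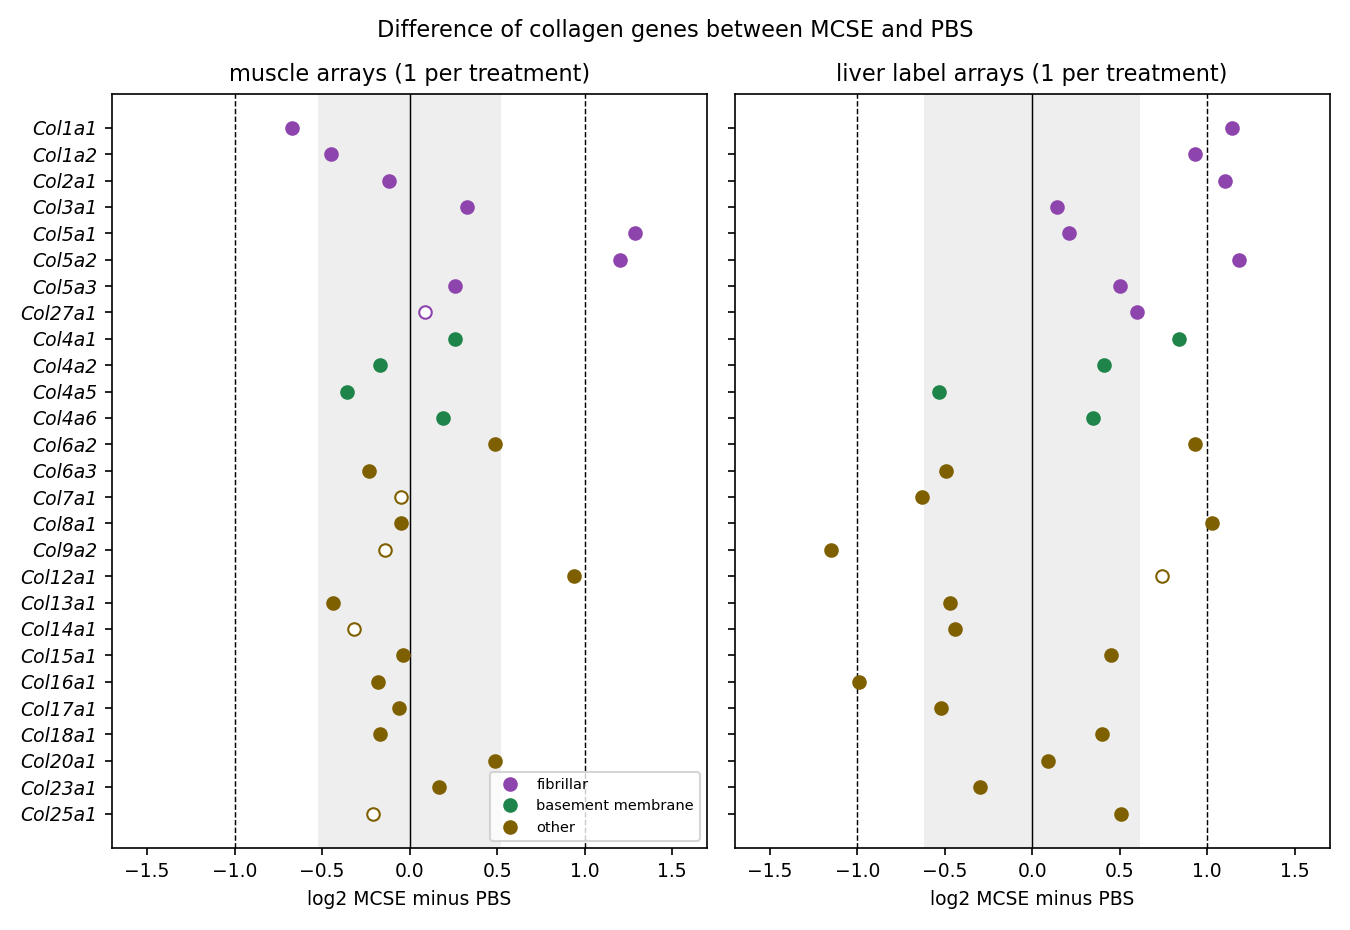
Log2 difference of MCSE minus PBS (x axis) for 27 collagen genes (rows), on the muscle pair (left) and the liver-labelled pair (right), 1 array per treatment, with colours for the class, open circles where the gene was not measured in that pair, grey bands for the SD per probe and dashed lines at 2-fold. On the liver label the measured fibrillar genes run from 0.14 to 1.18, where Col27a1 counted as measured only through its MCSE array and so could only lie above 0. In muscle they run from -0.67 to 1.29.

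On the liver pair, MCSE exceeded PBS by 2-fold or more in 4 of 26 measured collagens and PBS exceeded MCSE in 1, where 8.27% and 6.01% of all 11342 measured genes were. The median was 0.38, against -0.02 over all genes, and 17 of 26 lay above 0 (65.4%, against 49.0% of all genes). The SD per probe was larger here, 0.611, and 10 collagens passed it (38.5%, against 36.3% of all genes). The higher members were Col5a2 at 1.18 (2.27-fold), Col1a1 at 1.14 (2.20-fold), Col2a1 at 1.10 (2.15-fold) and Col8a1 at 1.03 (2.04-fold). With the probes of a gene averaged, 1 in place of 4 was 2-fold higher. The lower member was Col9a2, a cartilage collagen, at -1.15. It lay at 9.64 on PBS liver and 8.49 on MCSE liver, and below the median of all probes on every array but PBS liver. Its sign was thus fixed by the filter. Of the cartilage markers 1 was measured on this pair, Sox9, at -1.25.

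The classes differed in their medians on the liver pair. The 8 measured fibrillar genes had a median of 0.77 and ranged from 0.14 to 1.18. Col27a1 reached the median of all probes only with MCSE, which fixed its sign. The smallest difference was that of Col3a1 (0.14), which was -0.13 with its probes averaged. Col1a2 was at 0.93. Type IV genes had a median of 0.38, with Col4a1 at 0.84, Col4a2 at 0.41, Col4a6 at 0.35 and Col4a5 at -0.53. Col4a6 also reached the median of all probes only with MCSE, which fixed its sign. The 14 others had a median of -0.37 and ranged from -1.15 to 1.03. Of these, Col7a1, Col9a2, Col14a1 and Col17a1 reached the median of all probes only with PBS, and Col25a1 only with MCSE. The class medians thus rest partly on genes whose sign was fixed by the filter. Col8a1, a short-chain collagen of vessel walls, lay at 9.70 with PBS and 10.73 with MCSE, while Col16a1, which coats fibrils, lay at 10.95 and 9.96. Col6a2 (0.93) and Col6a3 (-0.49) again differed in sign. On the MCSE adipose array, whose values resembled those of MCSE liver, Col1a1, Col2a1 and Col8a1 lay at 11.07, 10.35 and 10.74, so it gives no independent check.

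Markers of kidney, slow muscle and tendon differed on the liver pair as well. Of 6 measured kidney markers, 4 were 2-fold higher with MCSE and 0 lower, with a median of 1.21, and their summed intensity, in units of 1000, was 101 with PBS and 149 with MCSE. Of 4 measured slow muscle markers, 3 were 2-fold lower with MCSE, with a median of -1.48, Myl3 at -2.89 and sums of 16.6 and 5.85. Both measured tendon markers were 2-fold higher, Tnmd at 2.06 and Thbs4 at 1.22, with sums of 1.67 and 3.19. Both lay below the median of all probes with PBS, at 8.52 and 8.05, and counted as measured only through MCSE, which fixed their sign. Tendon and slow muscle lie outside the labelled tissue. White adipocyte markers had a median of 0.28, within the SD per probe, with 1 of 6 2-fold higher and sums of 192 and 227. Of 7 hepatocyte markers 1 was 2-fold lower, Fgb at -1.45. The 9 measured fibroblast markers had a median of -0.22, with 0 higher and 1 lower, and a sum of 122 on both arrays. Smooth muscle and pericyte markers had a median of -0.04, endothelial markers 0.06 and macrophage markers -0.04, each with 0 of 7 or 8 past 2-fold. Of the 5 stellate cell markers, 1 was measured, Ngfr at -1.06. The part of RNA from these tissues in the collagen differences was not tested.

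Muscle and the liver label were then compared with limma, with the PBS and MCSE array of each label as its 2 samples. Their spread thus holds any effect of MCSE. Of 22 collagens tested, 6 were lower in muscle and 1 was higher (limma adjusted p below 0.05 and a change of 2-fold or more), where 16.7% and 10.8% of all 10627 genes were. The lower ones were Col18a1, Col3a1, Col4a1, Col4a2, Col15a1 and Col6a3, and the higher one was Col20a1. The median over the 22 was -0.14, against -0.03 over all genes. In 16 of the 22 the muscle arrays did not overlap the liver arrays, which was so for 70.7% of all genes.

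Col18a1 had the largest difference of the 22. Its product is a basement membrane collagen whose end fragment is endostatin. It lay at 10.06 and 9.89 in muscle and at 12.59 and 12.99 on the liver label, and its log2 difference of muscle minus liver label was -2.82 ± 0.30 (SE, limma adjusted p = 0.00267), or 7.05-fold lower in muscle. Col15a1, its relative in the same multiplexin family, lay at 9.67 and 9.63 against 10.73 and 11.19 (-1.31 ± 0.30, limma adjusted p = 0.0237). Col4a1 was at -1.47 ± 0.37 (limma adjusted p = 0.0308) and Col4a2 at -1.36 ± 0.30 (limma adjusted p = 0.0209). These 4 genes of basement membrane or its border zone were grouped after their calls were seen, and all were lower in muscle. Over the 22 collagens tested, 6 in total were called lower and 1 higher. Among all genes 1776 were called lower and 1150 higher. The shared sign is therefore not read as a trait of this group. Col4a5 (0.40 ± 0.33) and Col4a6 (0.26 ± 0.29) did not pass, with limma adjusted p of 0.385 and 0.527.

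Of the fibrillar genes 1 of 7 passed without treatment in the fit, Col3a1, at -1.62 ± 0.29 (limma adjusted p = 0.0115, 3.08-fold lower in muscle). Col1a2 had the opposite sign, 1.26 ± 0.40, but its limma adjusted p was 0.0605. With treatment as a term, which matches the arrays of muscle and the liver label by treatment, Col1a2 (limma adjusted p = 0.0362) and Col5a2 (0.00818, on its brightest probe) were called as higher in muscle beside Col3a1 as lower, so 3 of 7 passed. Over all collagens that fit called 4 as higher and 7 as lower. Among all 10627 genes it called 1690 as higher and 2031 as lower, against 1150 and 1776 without treatment in the fit. Col1a1 was at -0.12 ± 0.46, with overlapping arrays. Col20a1 was 1.90 ± 0.31 higher in muscle (limma adjusted p = 0.00831, 3.72-fold), with all other arrays between 9.05 and 9.39. Col6a3, at 11.09 and 10.86 against 12.53 and 12.04, was at -1.31 ± 0.31 (limma adjusted p = 0.0268).

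These calls rested on few arrays. With all 6 arrays in 1 fit, 0 of the 22 collagens were called in either direction (0.395% of all genes were higher and 0.0% lower, 1 collagen had an unadjusted p under 0.05) and the limma adjusted p of the 7 ran from 0.463 to 0.807. Without the PBS muscle array, Col3a1 (limma adjusted p = 0.0901), Col15a1 (0.121), Col4a1 (0.138), Col4a2 (0.0969) and Col6a3 (0.104) were not called. Without the MCSE muscle array, Col20a1 (0.0663), Col15a1 (0.146), Col4a1 (0.0936), Col4a2 (0.149) and Col6a3 (0.182) were not. Col18a1 was called in all 4 such fits. Without MCSE liver, Col1a2 was called as higher in muscle at 1.72 (0.0181) and Col5a2 at 2.03 (0.0452), and Col16a1 as lower at -1.60 (0.0147). Col5a2 was also called without PBS muscle, at 2.04 (0.0484). Without PBS liver, Col2a1 (-1.59, 0.0159), Col6a2 (-1.24, 0.0457) and Col8a1 (-1.25, 0.0264) were called as lower.

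**Figure D3:**
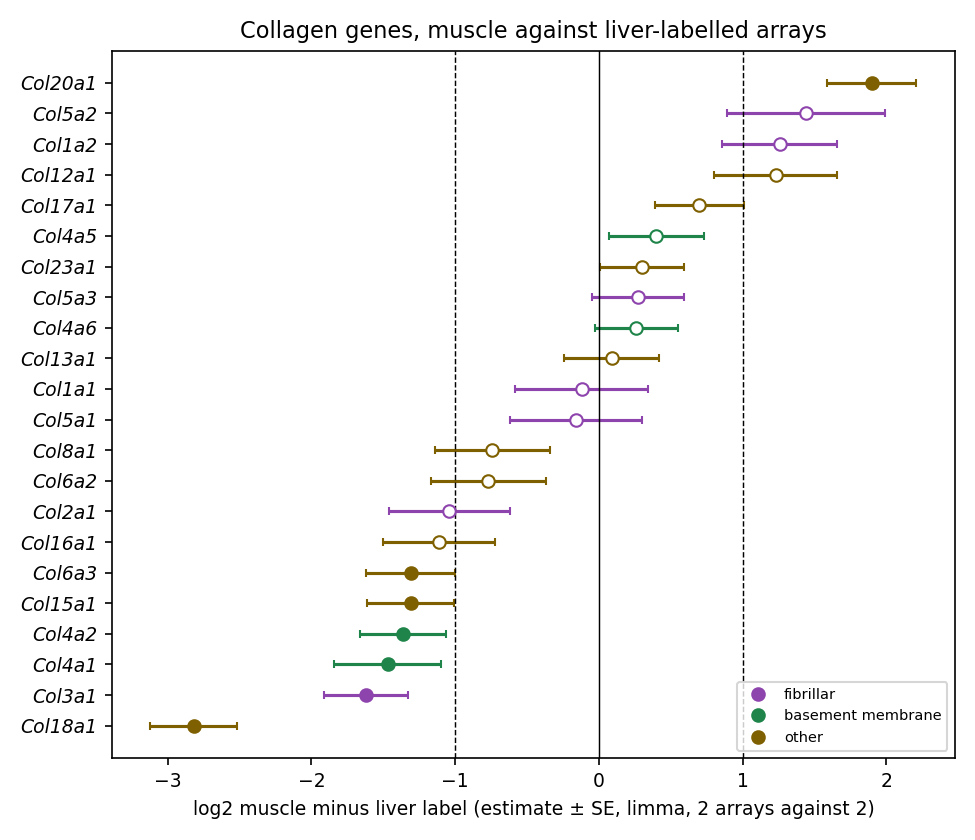
Log2 difference of muscle minus the liver label (x axis, limma estimate with bars of ± 1 SE, 2 arrays against 2) for the 22 collagen genes tested (rows), filled where the gene passed an adjusted p of 0.05 and 2-fold. Col18a1 lies lowest at -2.82 and Col20a1 highest at 1.90, and the fibrillar genes are spread over both sides of 0.

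Marker lists of other cells moved in both directions in this comparison, where 16.7% of all genes were lower in muscle and 10.8% higher. White adipocyte genes were lower in muscle in 5 of 6, hepatocyte genes in 4 of 6 and kidney genes in 6 of 6, with medians of -2.13, -3.29 and -4.19 and 0 higher. Fibroblast genes were lower in 4 of 9 (median -0.84) and endothelial genes in 3 of 7 (median -0.87), with 0 higher. Fast muscle genes were higher in muscle in 6 of 6 and slow muscle genes in 4 of 7, with medians of 6.97 and 3.68. Tendon genes were higher in 1 of 4 (median 2.07), cartilage genes in 1 of 2 (1.89) and basal skin genes in 1 of 4 (0.50), with 0 lower. Smooth muscle and pericyte genes had 1 of 8 higher and 1 lower (median 0.17), and macrophage genes 2 of 6 lower (-0.95). Summed fibroblast intensity (in units of 1000) was 85.6 and 72.6 in muscle and 122 on both liver arrays, and the endothelial sum 14.3 and 10.7 against 19.7 and 21.7. The part of the cells on these lists in the collagen differences was not tested.

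The choice of probe mattered for Col5a2. Its brightest probe was chosen because of the PBS adipose array, at 14.95. Its second probe lay at 10.25 and 10.66 in muscle, 11.31 and 11.92 on the liver label and 9.60 and 11.73 on the adipose label. The probes thus ordered muscle and the liver label in opposite ways, at 1.44 ± 0.55 (limma adjusted p = 0.0959) for the former and -1.16 ± 0.34 (0.0502) for the latter. The latter is also the brightest over the 4 arrays compared, and it gave 0.41 for MCSE minus PBS in muscle and 0.61 on the liver label, both below 2-fold. Its order of arrays resembled that of Col3a1, with liver above muscle and PBS adipose lowest.

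**Figure D4:**
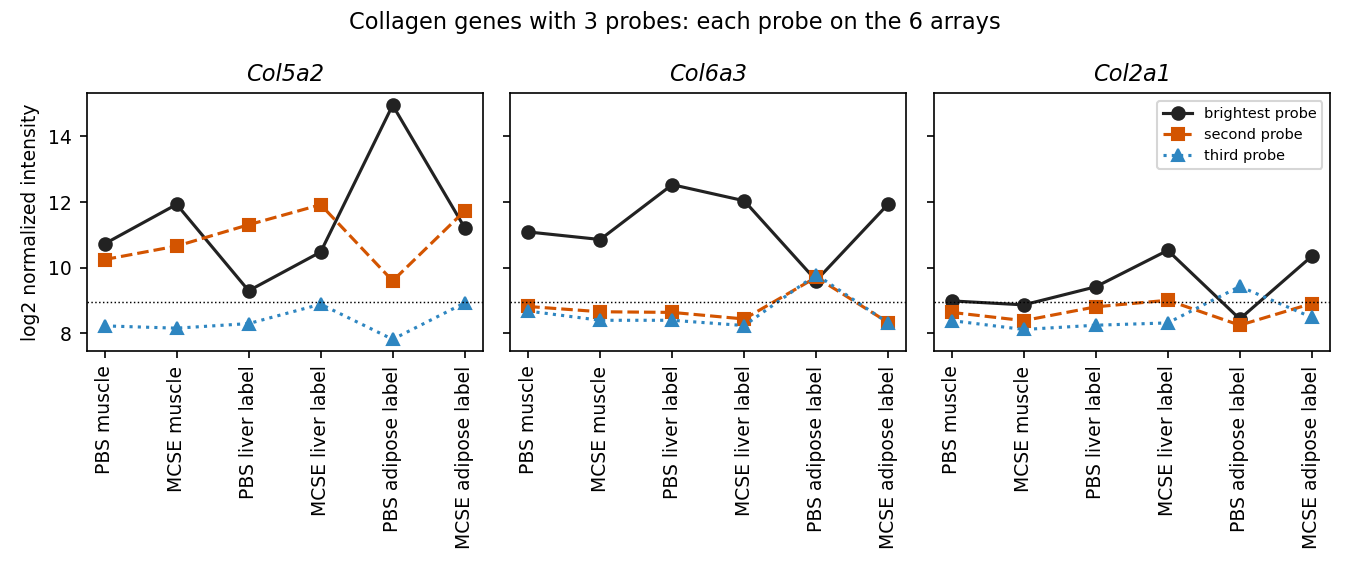
Log2 normalized intensity (y axis) of each probe of the 3 collagen genes with 3 probes, on the 6 arrays (x axis), with a dotted line at the median of all probes (8.95). The brightest Col5a2 probe peaks at 14.95 on PBS adipose, where the second lies at 9.60, and the dimmer probes of Col6a3 stay below 9 except on that array.

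The remaining further probes were mostly dim. Of 19 such probes, 3 were measured on the muscle pair and 4 on the liver pair. A probe of Col2a1 other than the brightest gave 0.19 on the liver pair where the brightest gave 1.10, and the other Col8a1 probe gave -0.55 where the brightest gave 1.03. Support for these 2-fold differences therefore came from 1 probe each, while Col1a1 had no other probe. The second Col9a1 probe lay at 7.86 on PBS muscle and 9.81 on MCSE muscle, and between 7.74 and 8.08 on the other 4 arrays. Its difference of 1.95 was larger than that of any collagen's measured brightest probe on the muscle pair, but the gene's brighter probe gave 0.23 and lay below the median on both arrays. The other Col6a3 probes gave 0.20 and 0.22 for muscle minus the liver label, near or below the median of all probes, where the brightest gave -1.31.

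On the array labelled PBS adipose, collagens departed from the other arrays in both directions. Of the 38, 8 lay at least 2-fold below every other array on their brightest probes, namely Col1a1, Col1a2, Col3a1, Col4a1, Col4a2, Col6a3, Col8a1 and Col18a1. Col18a1 lay at 7.78, close to the floor of 7.74 applied to dim values, and Col3a1 at 9.44. Dimmer probes of these genes did not show it. Both of Col6a3 were highest on this array, at 9.71 and 9.79. The other probe of Col3a1, at 8.31, and that of Col8a1, at 9.18, were not lowest there. In contrast, 5 lay at least 2-fold above every other array: Col5a1, Col5a2, Col8a2, Col17a1 and Col23a1. These counts were not made over all genes. This array also stood apart in marker genes, so the counts are not read as a trait of collagens. Col17a1 and Col23a1, which span the membrane of epithelial cells, lay at 11.26 and 11.19, against at most 9.68 and 9.58 elsewhere. Basal skin markers had a median of 8.94 on this array, against 10.23 and 10.49 in muscle and 8.80 to 9.01 on the other 3 arrays, while their summed intensity (in units of 1000) was 18.3 there and 5.31 to 9.53 elsewhere. Their defining members did not move together, as Krt14 lay at 13.77 and Trp63 at 8.16. Fibroblast markers summed to 13.5 there (in units of 1000), against 72.6 to 128 on the other 5 arrays.

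Genes that make, process and remove collagen were counted in the same way, where 3.9% of all genes were 2-fold higher and 1.88% lower in muscle, and 8.27% and 6.01% on the liver label. With so few genes a list, these counts are not set apart from those shares. Of the synthesis genes, 0 of 15 measured in muscle passed 2-fold and 1 of 16 on the liver label did, Creb3l1, a transcription factor of the secretory pathway, at -1.63. Processing and cross-linking genes had 0 of 6 and 0 of 7. The breakdown list, which also holds the protease inhibitors Timp1 and Timp3, had 0 of 8 and 0 of 7. Sparc, which binds collagen, was at 0.68 in muscle, and Bmp1, which removes the procollagen end peptide, at 0.90 on the liver label. Bmp1 reached the median of all probes there only with MCSE, which fixed its sign. Mmp13, a collagenase, was at 0.73 in muscle.

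Among collagen receptors, Itga10, an integrin chain, was higher with MCSE on both pairs, by 1.23 in muscle and 1.88 on the liver label, from 11.38 to 12.61 and from 8.79 to 10.67. It was the 1 of 3 and 1 of 4 measured receptors past 2-fold. On the liver pair Itga10 reached the median of all probes only with MCSE, which fixed its sign there. Of the fibril proteoglycans, 2 of 8 were 2-fold lower in muscle, Fmod at -2.04 and Kera at -1.72, and 0 of 7 passed on the liver label. Kera reached the median of all probes in muscle only with PBS, which fixed its sign. Fmod binds type I fibrils. The tendon markers in muscle included Comp at 2.94 and Thbs4 at -2.38, of 5 measured, and the summed intensity of the list, in units of 1000, was 18.4 with PBS and 11.0 with MCSE. Comp reached the median of all probes only with MCSE, so its sign was fixed too. The part of tendon in the muscle differences was not tested.

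Of the basement membrane partners, Lamc1, a laminin chain, was 2-fold lower in muscle (-1.42) among 9, and Agrn, a matrix proteoglycan, 2-fold higher on the liver label (1.15) among 10. Their medians were -0.08 and 0.56, where the type IV genes had 0.01 and 0.38. Smad7, an inhibitor of TGF-beta signalling, was the 1 of 9 signalling genes past 2-fold on each pair, at 1.03 and 1.58.

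In the comparison of muscle with the liver label, the lists are given beside the 16.7% of all genes that were lower in muscle and the 10.8% that were higher, and nothing is read from counts near those shares. Of 15 synthesis genes, 4 were lower in muscle and 0 higher with limma. Serpinh1, the collagen chaperone, was at -2.28 ± 0.30 (limma adjusted p = 0.00442), and the others were Plod1, Crtap and Ppib, named after their values were seen. Processing genes were lower in 2 of 7, Pcolce2 at -1.67 and Adamts2 at -1.24. Of the breakdown list, which also holds the protease inhibitors Timp1 and Timp3, 3 of 7 were lower. They were Ctsk, cathepsin K, at -2.35, Timp3 at -1.48 and Mrc2 at -1.38. Receptors were lower in 1 of 4, Ddr1 at -1.81, and basement membrane partners in 2 of 9, Nid2 (-1.27) and Nid1, the latter named after its value was seen. Proteoglycans passed in 0 of 7 with limma, and TGF-beta genes in 1 of 9, Smad3, higher at 2.49 and named after its value was seen.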

How the data were processed

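The values were the normalized probe intensities that the authors deposited, linear in scale, for 29922 probes on 6 arrays. Per the submitters' processing notes limma was used, at a version they do not name. How background was corrected and arrays were normalized, and the genome build, are not given in the sources used here, which limits what intensity differences can be traced to. The sorted log2 values of any array lay within 0.008 of the median array, so the columns share 1 distribution and were not scaled again. This assumes equal distributions and stretches a weak array. The platform annotation gave 1 symbol for 21020 probes, none for 8902 and several for 0. Values under 214.2, the 5th percentile, were set to it before log2.

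With 1 array per group, MCSE minus PBS was described by size, with 2-fold as the threshold. Muscle was compared with the liver label by limma 3.58.1 in R 4.3.3 (lmFit and eBayes, 2 residual and 4.2 prior degrees of freedom) over genes whose mean on the 4 arrays reached the median, with Benjamini-Hochberg adjustment. Tested on simulated data for that comparison (10627 genes, 50 changed per size), it recovered 4, 40, 50 and 50 genes changed by 1, 2, 3 and 4 on the log2 scale, with 9 false calls. P-values measure only the spread between these arrays. The members and gene lists were chosen with earlier results of these data known. All measured members could be named, and Col8a2 was named after its value was seen. Of the other lists, the 4 measured genes with the largest difference per pair could be named, and cell type markers where their label was checked. Python 3.11.15, numpy 2.4.6, pandas 2.3.3, statsmodels 0.14.6 and matplotlib 3.10.9 were used. Alternatives covered scaling, probe choice, filters, the floor, the threshold and the fit.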

Additional observations from a re-analysis of the deposited data

Results flagged for a closer look

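The difference of MCSE minus PBS of Col1a1 had opposite signs on the 2 pairs, each beyond the SD per probe, at -0.67 in muscle and 1.14 on the liver label. The gap of 1.81 was not tested, since each pair has 1 array per treatment. Col1a2 had the same signs, at -0.45 and 0.93.

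The array labelled PBS adipose, which enters no comparison of MCSE with PBS, held 5 collagens at least 2-fold above the highest of the other 5 arrays. The same count was not made over all genes. The gap was 3.03 for Col5a2, 1.61 for Col23a1, 1.58 for Col17a1, 1.56 for Col5a1 and 1.05 for Col8a2 on the log2 scale. For Col5a2 the other probes did not show it, as they lay at 9.60 and 7.82 on that array, each the lowest of the 6. The other Col23a1 probe was also highest there, at 10.0 against at most 9.21.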

How the results depend on the processing

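In muscle, the 2 of 22 collagens 2-fold higher became 1 when the brightest probe was chosen over the 4 arrays compared. That setting was chosen after seeing the data, and 3.87% of all genes were higher with it. The 0 lower became 1 of 22 at 1.5-fold, where 7.91% of all genes were lower. The muscle median of -0.04 became 0.08 with a gene's probes averaged. On the liver label, the 4 of 26 higher collagens became 1 of 22 with the mean over all probes (Col2a1 at 0.45 and Col8a1 at 0.24). They became 2 of 12 when only genes reaching the upper quartile were kept and 8 of 26 at 1.5-fold. Of all genes, 8.27% were higher at first, and 7.19%, 7.72% and 20.1% with these settings in turn. The 1 lower became 0 of 12 with the upper quartile filter and 3 of 26 at 1.5-fold. Of all genes, 7.63% and 18.5% were lower with these, against 6.01% at first. The liver median of 0.38 became 0.22 with the mean over all probes and 0.11 with no filter, which adds dim genes. Where the cause is not given by the setting itself, the cause was not tested.

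In the fit of muscle against the liver label, all 6 arrays gave 0 collagens higher and 0 lower, and 42 and 0 of all genes, with a prior SD of 0.739 in place of 0.329. Treatment as a term gave 4 collagens higher, adding Col12a1, Col1a2 and Col5a2, and 7 lower, adding Col16a1. Calls also rose among all genes, to 1690 higher and 2031 lower from 1150 and 1776. With no filter, 742 of all genes were higher. Leaving out 1 array at a time gave 0 to 3 collagens higher and 1 to 9 lower, and among all genes 481 to 1557 higher and 728 to 2024 lower. Single array pairs of MCSE and PBS cannot leave out an array. None of the 7 collagens called in the reported fit changed sign under any alternative run, but Col5a2, called as higher with treatment as a term (1.44), was at -1.16 with the brightest probe over the 4 arrays and -0.04 with its probes averaged. Among single collagens, 231 of the fitted differences under alternatives stayed on the same side of the threshold, 20 lost and 11 gained the call. Col6a3 was not called with the mean over all probes (-0.30), nor Col4a1 and Col6a3 with no filter (limma adjusted p of 0.0838 and 0.0519). The labels carry no replicate numbers, so the fit with treatment as a term is the one that matches arrays across labels.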
